A study of Homo sapiens with 33 samples.

Results

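H2052 (NCI-H2052) is an established human cell line of malignant pleural mesothelioma (MPM), a cancer of the mesothelial lining of the lung. Its 2 libraries from cells kept with the drug solvent DMSO were set against the 9 DMSO libraries of H2452, H28 and MSTO-211H, with 3 libraries each, out of 33 libraries in the series. The libraries were taken by their labels, and no measured value was used to choose them. All 4 lines are MPM lines sensitive to palbociclib, an inhibitor of the cell cycle kinases CDK4 and CDK6. The question was which genes set H2052 apart from every other sensitive line without the drug.

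Cells of all 4 groups had been kept in 0.1% DMSO, for 9 and 10 days in the H2052 experiments and for 9, 9 and 10 days in each of the other lines. The study lists H2052 as a sarcomatoid line with CDKN2A and CDKN2B deleted, NF2 mutated and LATS2 deleted, and with BAP1 and RB1 unaltered. H2452 is listed as biphasic with mutated BAP1, H28 as sarcomatoid with a partial loss of BAP1, and MSTO-211H as biphasic with a partial loss of LATS2. Each line comes from the tumour of a single patient. Replicate libraries of a line are separate experiments on the same cells, so the tests below measure the spread between experiments, and no test over lines is possible with 1 line against 3.

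The Hippo pathway is a kinase cascade that restrains the coactivators YAP and TAZ. Merlin, the product of NF2, stands upstream and helps to activate the kinases MST1 and MST2 (STK4 and STK3) and then LATS1 and LATS2, which phosphorylate YAP and TAZ and keep them out of the nucleus. In the nucleus, YAP and TAZ bind TEAD factors and raise genes of growth and matrix. NF2, LATS2, CDKN2A and BAP1 are among the tumour suppressors most often lost in MPM.

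Of 16288 genes tested, 1346 (8.26%) were higher in H2052 than in each of the other 3 lines and 1122 (6.89%) were lower than in each of them. Values are counts per 20000000 reads (CP20M), which were compared on the log2(CP20M + 10) scale with limma. A gene was called where all 3 differences went the same way with a fold above 1.5 and an adjusted p under 0.05, over all genes tested. The pseudocount of 10 shrinks differences of genes with low values. Taken singly, H2452, H28 and MSTO-211H differed from H2052 at 49.3%, 56% and 47.2% of the genes, so most genes that differed from 1 line did not differ the same way from all 3. In these bulk libraries, fewer cells with a transcript and less RNA per cell cannot be told apart. For the higher genes, 404 of the 1346 passed the filter of 100 CP20M through H2052 alone, so these could be called in no other direction and their number supports nothing. With median-of-ratios scaling in place of scaling to the library total, 1587 genes were higher and 867 lower, so that the share of higher calls moved from 54.5% to 64.7%, and it was 46.3% with upper-quartile scaling. Upper-quartile scaling also shifted the median difference of all genes to between -0.18 and -0.08 in the 3 contrasts.

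In H2052, values could be traced to a depth of 19360000 counted reads for replicate 2, and replicate 1 had about 20000000 or more. A count of 3 reads therefore corresponds to at most 3.10 CP20M. Depths that could be estimated for 7 of the 11 libraries ran from 14740000 to 19360000. The H2052 replicates differed more than 1.5-fold at 9.73% of the tested genes, within the 6.74% to 21.2% seen for pairs of replicates of the other lines.

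**Figure D1:**
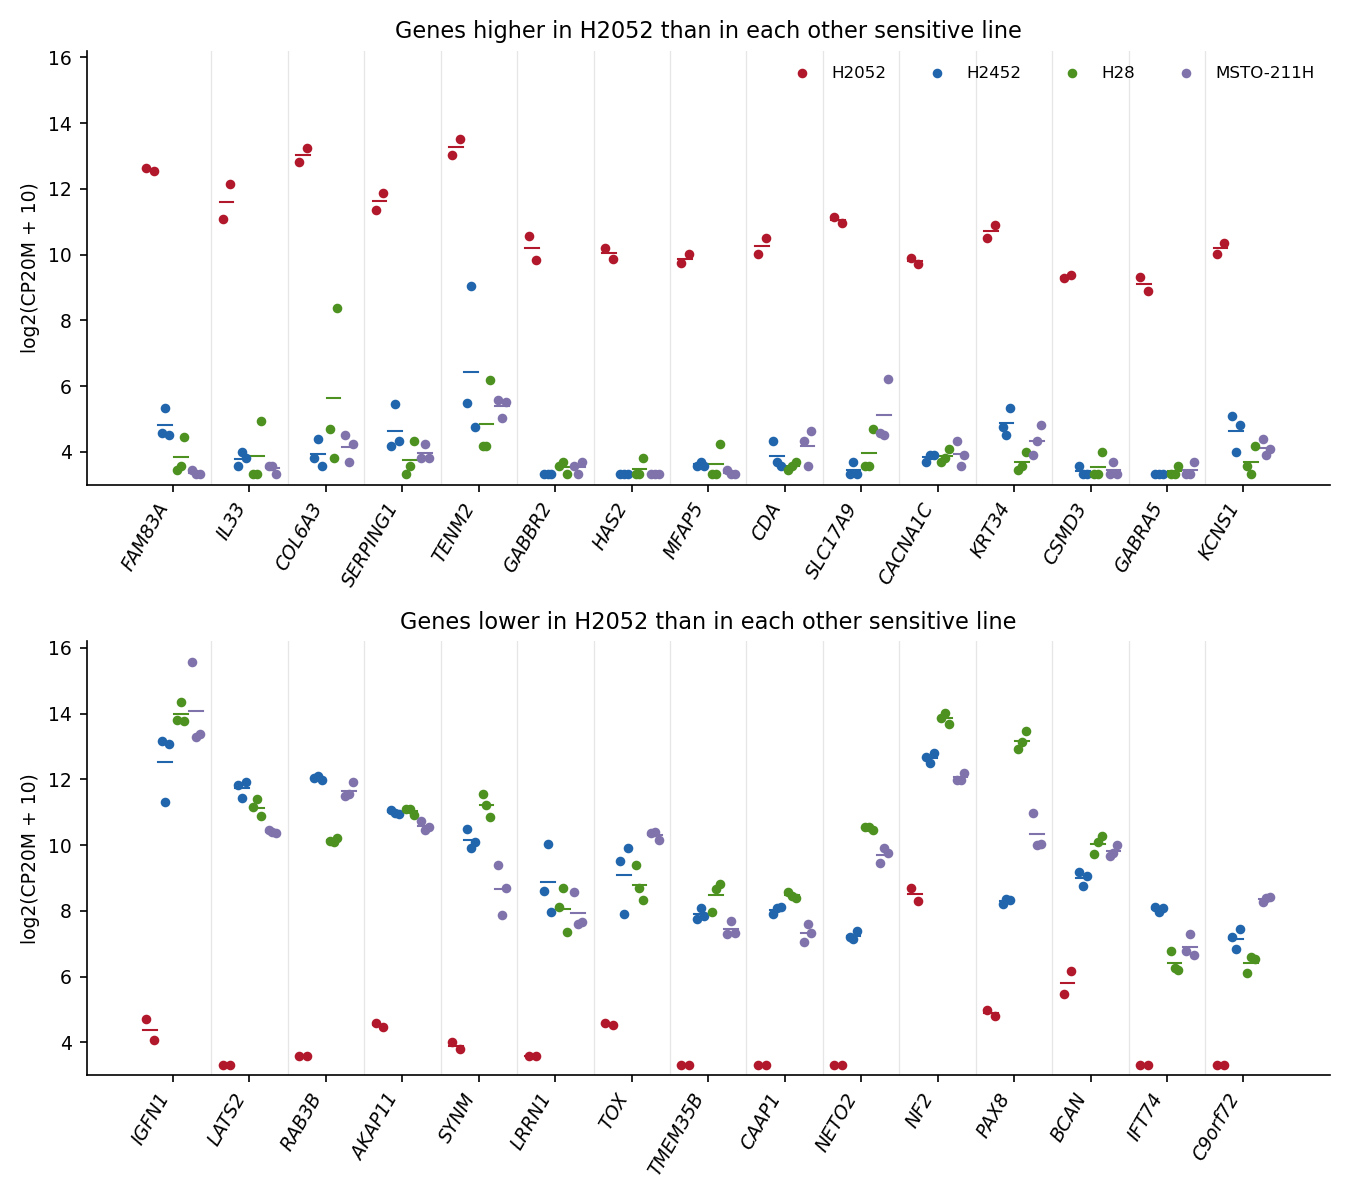
Levels of the 15 protein-coding genes with the largest difference from the nearest other line in each direction, on the log2(CP20M + 10) axis. Each point is 1 DMSO library and each bar is the mean of a line (n = 2 for H2052, n = 3 for the others), and for every gene shown the H2052 points lie outside the range of the 9 other points.

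Transcripts of LATS2 were missing from H2052. LATS2 (ENSG00000150457, chromosome 13 from 20973036 to 21061586 of GRCh38), the kinase that phosphorylates YAP, was listed at 0 in both H2052 libraries. H2452 had 3642, 2763 and 3847 CP20M, H28 had 2270, 2690 and 1876, and MSTO-211H had 1401, 1335 and 1309. H2052 was therefore at least 435-fold lower than MSTO-211H, the lowest of the others, against a floor of 3 reads per library (limma adjusted p = 8.7e-10 in the contrast with the largest p). Neighbours of LATS2 were transcribed in H2052, with 836 and 625 CP20M for XPO4 on one side and 935 and 919 for SAP18 on the other. XPO4, a nuclear transport receptor, was called lower (nearest difference -0.76), whereas SAP18, a subunit of a histone deacetylase complex, was not called (0.11).

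NF2 (ENSG00000186575, chromosome 22 from 29603556 to 29698598), which encodes Merlin, had 407 and 305 CP20M in H2052. The other lines had from 4022 CP20M in a MSTO-211H library to 16708 in a H28 library, so that no library of another line came near H2052. MSTO-211H was the nearest line, with a log2 difference of -3.56 (standard error 0.16, limma adjusted p = 2.87e-08). NIPSNAP1 and CABP7, the protein-coding neighbours of NF2, had nearest differences of -0.54 and 0.01 and were not called.

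The other members of the Hippo cascade were mixed. Of 24 tested members of the cascade and its regulators, 4 (16.7%) were called higher and 3 (12.5%) lower, beside 8.26% and 6.89% over all genes, counting NF2 and LATS2 among the latter, with a median difference from the mean of the 3 lines of 0.28, beside -0.05 over all genes. The upstream kinases STK3 and STK4 were both higher. STK3 had 1158 and 1234 CP20M in H2052 against 274 to 467 in the other libraries, and STK4 had 4721 and 6038 against 1598 to 3113. DCHS1, a giant cadherin that feeds into the pathway, had 811 and 1020 CP20M against 10 to 50. Of the 24 members, DCHS1 was the 1 that passed the filter through H2052 alone, so it could only be called higher. AMOTL1, a junction protein that binds YAP, had 6292 and 5277 CP20M against 29 to 2626. FAT1, another giant cadherin, was called lower with a nearest difference of -0.67 (standard error 0.22, limma adjusted p = 0.0202), a call that was lost without either H2052 library, without MSTO-211H replicate 1 and with median-of-ratios scaling. LATS1, the paralog of LATS2, was not called, since H2052 (704 and 676 CP20M) lay between MSTO-211H (354 to 406) and H2452 (1078 to 1284).

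At the end of the cascade, the pair of coactivators differed. WWTR1, which encodes TAZ, had 387 and 479 CP20M in H2052 and was lower than in each other line, with -0.87 against MSTO-211H (standard error 0.16, limma adjusted p = 7.7e-04). H28 reached 8040 to 10252 CP20M for the same gene. YAP1 was not called, at 5634 and 5225 CP20M against 4678 to 4755 in H2452. VGLL3, a cofactor that binds TEAD factors in place of YAP, had 5125 and 5607 CP20M in H2052 and from 0 to 883 in the others (nearest difference 3.55, standard error 0.77, limma adjusted p = 0.00225).

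The target genes of YAP and TAZ did not follow a single direction. Of 22 tested, 2 were higher (TGFB2 and ASAP1), 1 was lower (LATS2, itself a target) and 19 were not called, or 9.09% and 4.55% beside 8.26% and 6.89% of all genes. The median difference over the 22 genes was 0.53. The classical targets CTGF, CYR61 and ANKRD1 were singled out with their values already known. CTGF, a matricellular protein now called CCN2, had 635 and 549 CP20M in H2052, above H28 (85 to 170) and below MSTO-211H (1560 to 2640). CYR61 had 10056 and 8446 CP20M, again between H28 and MSTO-211H. ANKRD1 had 1615 and 313 CP20M, and the range between these replicates overlapped all 3 other lines. TGFB2, a TGF-beta ligand, had 1270 and 1527 CP20M against 367 to 687 in H2452 and at most 23 in the other lines, and its call was lost without H2052 replicate 2 and with a pseudocount of 1.

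The promoters of 3 of these genes are shown because they hold the TEAD binding motif GGAATG (or CATTCC on the other strand), through which YAP and TAZ act. In the RefSeq promoter table (GRCh38.p14, 250 bases before to 50 after the start of each gene), 16 of the list's genes had an entry, and 7 of the 16 (43.8%) held the motif beside 14% of all 35116 promoters. A match to these letters is a description of the sequence and not a bound site. Each promoter is written on the strand of its gene, with the motif in capitals.
CCN2 (chr6:131951323-131951622, minus strand): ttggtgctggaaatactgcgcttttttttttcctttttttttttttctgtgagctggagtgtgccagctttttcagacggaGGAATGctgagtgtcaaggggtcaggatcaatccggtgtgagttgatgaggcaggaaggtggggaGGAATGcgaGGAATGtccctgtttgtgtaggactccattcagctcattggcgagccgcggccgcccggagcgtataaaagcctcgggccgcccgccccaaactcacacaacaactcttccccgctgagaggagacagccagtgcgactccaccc
TGFB2 (chr1:218345086-218345385, plus strand): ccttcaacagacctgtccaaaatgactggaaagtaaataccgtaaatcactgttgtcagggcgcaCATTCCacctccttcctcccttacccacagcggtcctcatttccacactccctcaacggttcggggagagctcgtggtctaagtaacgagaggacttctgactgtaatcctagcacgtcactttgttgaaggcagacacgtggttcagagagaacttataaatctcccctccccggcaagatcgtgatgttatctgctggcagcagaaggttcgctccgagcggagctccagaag
LATS2 (chr13:21061537-21061836, minus strand): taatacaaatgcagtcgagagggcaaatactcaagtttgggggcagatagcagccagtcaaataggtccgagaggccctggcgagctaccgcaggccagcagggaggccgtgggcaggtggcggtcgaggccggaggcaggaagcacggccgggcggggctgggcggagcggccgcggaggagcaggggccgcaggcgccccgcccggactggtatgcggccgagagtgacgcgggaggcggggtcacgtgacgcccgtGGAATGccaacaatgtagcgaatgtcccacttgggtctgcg

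The CCN2 promoter holds 3 copies of the motif and those of TGFB2 and LATS2 hold 1 each. Of these 3 genes, TGFB2 was the one called higher in H2052, CCN2 was not called and LATS2 was at 0.

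**Figure D2:**
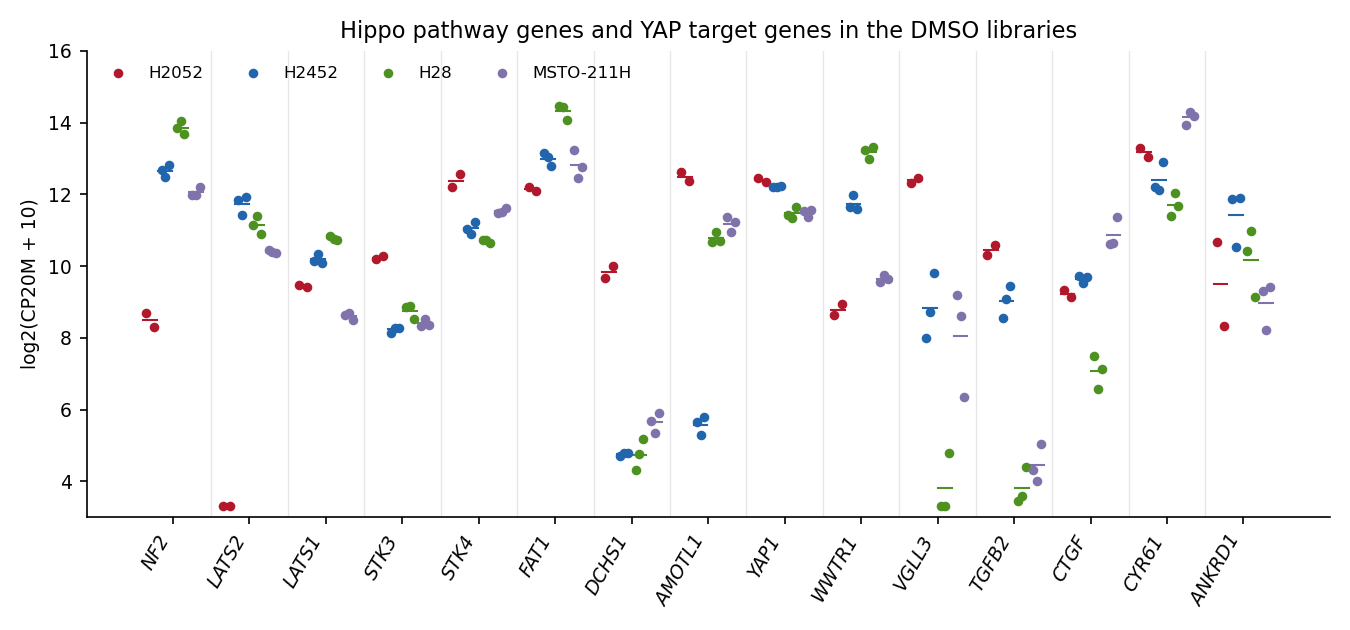
Levels of genes of the Hippo cascade (NF2 to AMOTL1), its coactivators and cofactor (YAP1, WWTR1, VGLL3) and 4 of its targets (TGFB2, CTGF, CYR61, ANKRD1) in the 11 DMSO libraries, on the log2(CP20M + 10) axis. Points are libraries and bars are line means, with NF2, LATS2, FAT1 and WWTR1 of H2052 below all other points of the same gene and STK3, STK4, DCHS1, AMOTL1 and VGLL3 above them.

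On the short arm of chromosome 9, H2052 lacked transcripts over a longer stretch than the other lines. CDKN2A and CDKN2B, which encode the CDK4 and CDK6 inhibitors p16 and p15, were at 0 in both H2052 libraries, but CDKN2B was also at 0 in every other line and CDKN2A in H2452 and H28, so neither passed the filter. MTAP, an enzyme of the methionine salvage pathway next to CDKN2A, was at 0 in H2052 and at 0 to 2 in H2452, whereas H28 and MSTO-211H had 1188 to 1816 CP20M. What set H2052 apart lay further along the arm. CAAP1, a caspase regulator (ENSG00000120159, chromosome 9 from 26840685 to 26892803), was at 0 in both H2052 libraries and at 124 to 370 in the others, at least 49.4-fold lower than in MSTO-211H. IFT74, a subunit of the transport machinery of cilia, was at 0 against 63 to 269 CP20M (at least 24.8-fold lower than in H28). C9orf72, a regulator of autophagy and membrane traffic, was at 0 against 59 to 335 (at least 24.6-fold lower than in H28). TUSC1 and PLAA, on the same stretch, were at 0 in H2052 as well and were also called lower, although H28 had only 8 to 24 CP20M of TUSC1 and MSTO-211H 7 to 18 of PLAA. On the near side of CDKN2A, transcripts were present in H2052, with 835 and 805 CP20M for HACD4, an enzyme of very long chain fatty acid synthesis that was called higher (a call lost without either H2052 library), and 8188 and 9993 for RPS6, a ribosomal protein that was not called. On the far side of C9orf72, ACO1, the cytosolic aconitase, had 3487 and 4353 CP20M and was not called. DNA was not measured in these libraries.

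A few other genes were at or near 0 in H2052 and above 100 CP20M in all 9 other libraries, while the genes beside them were transcribed. RAB3B, a small GTPase of vesicle secretion (chromosome 1 from 51907956 to 51990700), had 2 CP20M in both H2052 libraries and 1090 to 4357 in the others, with a nearest difference of -6.56 (standard error 0.14, limma adjusted p = 1.71e-10). Of the genes on either side, NRDC had 2664 and 2687 CP20M in H2052 and was not called, and TXNDC12 had 513 and 572 and was called lower (-0.63). NETO2, an auxiliary subunit of kainate receptors (chromosome 16), was at 0 against 133 to 1504 CP20M. LRRN1, a leucine-rich repeat membrane protein (chromosome 3), had 2 CP20M in both libraries against 155 to 1049, and its neighbour SUMF1 had 523 and 563. TMEM35B (chromosome 1) was at 0 against 147 to 441 CP20M. AKAP11, an anchoring protein of protein kinase A on chromosome 13, was almost silent, with 14 and 12 CP20M against 1403 to 2188, while its neighbour DGKH had 1091 and 969.

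Among the other lower genes, IGFN1, a muscle sarcomere protein, had the largest difference, with 16 and 7 CP20M against 2508 to 48595 (nearest difference -8.12, standard error 0.68, limma adjusted p = 2.11e-06). SYNM, an intermediate filament protein of muscle, had 6 and 4 CP20M against 226 to 2986. PAX8, a transcription factor of kidney and Müllerian epithelium, had 22 and 18 against 286 to 11334. Some detoxifying enzymes were lower. NQO1, a quinone reductase and a known target of the stress factor NRF2, had 1880 and 1911 CP20M against 8211 to 16843 (nearest difference -2.28, standard error 0.25, limma adjusted p = 1.39e-05). The aldo-keto reductase AKR1C3 had 40 and 58 CP20M against 223 to 6384. Of 28 tested genes of aldehyde, ketone and drug metabolism, 5 (17.9%) were lower, 2 (7.14%) higher and 21 not called, beside 6.89% lower and 8.26% higher over all genes, with a median difference of -1.01. AKR1C1 and AKR1C3 share much of their sequence, so reads may be split between them, and the call of AKR1C1 was lost without either H2052 library and without MSTO-211H replicate 1.

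FAM83A, an adaptor protein of growth factor signalling, had the largest difference among higher genes. It had 6415 and 5926 CP20M in H2052 and at most 30 in the other libraries, with a nearest difference of 7.78 (standard error 0.32, limma adjusted p = 1.5e-08). IL33, a nuclear cytokine released by damaged cells, had 2140 and 4487 CP20M against 0 to 21. Its H2052 replicates differed more than 1.5-fold, but the difference from the nearest line was 7.74 (standard error 0.47). SERPING1, the inhibitor of the first component of complement, had 2592 and 3776 CP20M against 0 to 34, and TENM2, a large adhesion protein of neurons, had 8282 and 11744 against 8 to 515. HAS2, an enzyme that makes hyaluronan, had 1177 and 921 CP20M against 0 to 4. CDA, the cytidine deaminase that inactivates cytidine analogues, had 1038 and 1457 against 1 to 15. FAM83A, IL33, SERPING1, HAS2 and CDA passed the filter through H2052 alone and could only be called higher. Genes of ion channels and transmitter receptors were also among the 15 genes with the largest differences (GABBR2, GABRA5, CACNA1C and KCNS1), with nearest differences between 5.57 and 6.66.

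Matrix genes were among those higher in H2052. Of 28 tested collagen genes, 6 (21.4%) were higher and 2 lower, and of 42 other matrix and basement membrane genes 9 (21.4%) were higher and 2 lower, beside 8.26% higher and 6.89% lower over all genes. The filter had been passed through H2052 alone by 2 of the collagens and 3 of the others. COL6A3, a chain of the beaded collagen VI, had 7258 and 9681 CP20M in H2052 against 2 to 326, where the value of 326 was from 1 H28 library (nearest difference 7.40, standard error 0.99, limma adjusted p = 5.94e-05). Its partner chain COL6A2 had 12821 and 14179 CP20M, with a nearest difference of 1.10. COL1A1, a chain of the fibrillar collagen I, had 4811 and 4229 CP20M against 88 to 1212. MFAP5, a microfibril protein, had 843 and 1021 against 0 to 9, and SPOCK1, a matrix proteoglycan, had 9137 and 9486 against 19 to 475. The lower members were 2 laminin chains and 2 collagens. LAMB1, the laminin beta-1 chain, had 1475 and 1889 CP20M (nearest difference -2.21) and COL18A1, a basement membrane collagen, had 1570 and 1911 (-1.99). LAMC1 and COL27A1 had nearest differences of -0.60 and -0.65, and both calls were lost with median-of-ratios scaling and without single libraries of H2052 or H2452. The call of LAMC1 was also lost with the replicate number as a block and without H28 replicate 1 or 3 or MSTO-211H replicate 3. LAMB1 and LAMC1 lie in stretches of chromosomes 7 and 1 where 35.6% and 64.6% of the tested genes were lower.

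Matrix proteases and their inhibitors went in a single direction where called. Of 32 tested, 9 (28.1%) were higher and 0 lower, beside 8.26% and 6.89% over all genes, and the median difference was 1.31. Of the 32, 1 had passed the filter through H2052 alone and could only be called higher. With palbociclib 5 of the 32 were called higher. PLAT, the tissue plasminogen activator, had 19000 and 24024 CP20M in H2052 against 25 to 2946, where 2946 was from MSTO-211H replicate 3, and its nearest difference was 4.60 (standard error 1.09, limma adjusted p = 0.00402). The urokinase receptor PLAUR had a nearest difference of 1.68. TIMP3, an inhibitor of metalloproteinases, had 1.71, with a call lost without either H2052 library. The proteases ADAMTS5 and ADAMTS7 had 2.56 and 2.57.

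Mesothelial markers were present in H2052. Of 22 tested mesothelial markers, 6 were higher and 2 lower (27.3% and 9.09%, beside 8.26% and 6.89% over all genes). The median difference was 2.18, and 1 of the 22 had passed the filter through H2052 alone. The 28 listed markers summed to 102002 and 122832 CP20M in H2052. They summed to 71150 to 118342 in H2452, 52917 to 66004 in MSTO-211H and 19032 to 24046 in H28. MSLN, the mesothelial surface protein mesothelin, had 3513 and 4999 CP20M in H2052, 816 to 1223 in H2452, 449 to 905 in MSTO-211H and 1 to 9 in H28 (nearest difference 1.98, standard error 0.32, limma adjusted p = 3.02e-04). KRT19, a keratin of simple epithelia, had 20856 and 26295 CP20M against 5 to 12352. GATA6, a transcription factor of mesoderm, had 1684 and 2152 against 22 to 570, and ALDH1A2, which makes retinoic acid in developing mesothelium, had 1060 and 903 against 2 to 100. WT1, another mesothelial transcription factor, was called with 0.94 (standard error 0.33, limma adjusted p = 0.0311), and the call was lost with upper-quartile scaling, without either H2052 library and without H2452 replicate 1 or 2. CALB2, which encodes calretinin, was low at 23 and 25 CP20M and was not called. The lower mesothelial markers were CDH2 and PRG4, with nearest differences of -0.78 and -1.81, and PRG4 lies in the same stretch of chromosome 1 as LAMC1.

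H2052 is listed as sarcomatoid, the spindle-shaped form of MPM, and most of its genes of mesenchymal state were not called. Of 35 tested mesenchymal genes, 6 (17.1%) were higher and 1 (2.86%) was lower, beside 8.26% and 6.89% over all genes. The median difference was 1.08, and 3 of the 35 had passed the filter through H2052 alone. With palbociclib 8 were called higher and 0 lower. SNAI2, a repressor of epithelial genes, had 1171 and 1070 CP20M against 27 to 304, and THY1, a fibroblast surface protein, had 7942 and 8148 against 331 to 2767. VIM, the mesenchymal filament protein vimentin, was not called, at 38428 and 37517 CP20M against 30064 to 63804. The lower member was CDH2, also on the mesothelial list, which encodes N-cadherin, at 1842 and 1521 CP20M against 2806 to 8601. Among 22 tested epithelial junction genes, 2 (9.09%) were higher and 3 (13.6%) lower, and 1 of the 22 had passed the filter through H2052 alone. The lower genes were CLDN4, CLDN15 and LSR. CLDN4 and CLDN15 lie in stretches of chromosome 7 where 31.5% and 35.6% of the tested genes were lower. ESRP1, an epithelial splicing factor, had 125 and 193 CP20M in H2052 and 0 or 1 in every other library. CDH1 (E-cadherin) had 4 and 5 CP20M in H2052. Markers of blood and vessel cells were low, and their part in the results above was not tested. The 14 immune markers summed to 616 and 778 CP20M in H2052 beside 191 to 1704 in the other lines, with the leukocyte marker PTPRC at 0 and 3, and the 10 endothelial markers summed to 132 and 157, with PECAM1 at 2 and 6. Of 7 tested fibroblast markers 3 (42.9%) were higher (PDGFRA, COL1A1 and THY1) and 0 lower, and 1 of the 7 had passed the filter through H2052 alone. The 11 listed fibroblast markers summed to 15011 and 15122 CP20M in H2052 and to 5533 to 27628 in H2452, so their sum did not set H2052 apart. They summed to 2979 to 7711 in MSTO-211H and 2660 to 3052 in H28.

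Most receptors and ligands of growth factor signalling were not called. Of 40 tested receptor tyrosine kinases, 8 (20%) were higher, 1 was lower and 31 were not called, and 3 of the 40 were called higher with palbociclib. The filter had been passed through H2052 alone by 5 of the 40, which could only be called higher, so the 20% cannot be read against the 8.26% over all genes. PDGFRA, a receptor for platelet-derived growth factors, had 657 and 1105 CP20M in H2052 and 0 to 27 in the others (nearest difference 4.95, standard error 0.29, limma adjusted p = 8.57e-08). RET, the receptor for GDNF family ligands, had 287 and 177 against 0 to 11. Both PDGFRA and RET are among the 5 receptors that passed the filter through H2052 alone. The lower receptor was MET, which binds hepatocyte growth factor, with 3556 and 3825 CP20M against 8417 to 18204 (nearest difference -1.26, standard error 0.15, limma adjusted p = 3.69e-05). ERBB3 lost its call without H2052 replicate 2, and EPHA5 without either H2052 library. Of 28 tested growth factor ligands, 6 (21.4%) were higher, 1 (3.57%) was lower and 21 were not called, and 3 of the 28 had passed the filter through H2052 alone. ANGPT1, a ligand of the vessel receptor TIE2, had 638 and 703 CP20M and a nearest difference of 3.09, and the neurotrophin NTF3 had 260 and 202 CP20M where every other library was at 0.

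In developmental signalling, the WNT list had 8 of 35 tested genes higher and 0 lower (22.9%). Of the 35, 4 had passed the filter through H2052 alone and could only be called higher. For every list in this paragraph, the shares over all genes were 8.26% higher and 6.89% lower. RSPO4, which enhances WNT signalling through LGR receptors, had 495 and 563 CP20M against 0 to 4, and WNT7A had a nearest difference of 2.80. The TGF-beta and BMP list had 3 of 43 higher (6.98%) and 1 lower, and the integrins 1 of 17 higher (5.88%) and 0 lower. These higher shares are near the share over all genes. The NOTCH list had 2 of 14 higher (14.3%) and 0 lower, and 1 of the 14 had passed the filter through H2052 alone. Of 71 tested developmental transcription factors outside the HOX clusters, 17 (23.9%) were higher and 3 lower, and 8 of the 71 had passed the filter through H2052 alone. They included FOXD1 (3055 and 1928 CP20M, nearest difference 2.84), SIX2 (456 and 441, 2.52) and TFAP2C (380 and 213, 3.45). Of 24 tested HOX genes 4 (16.7%) were higher (HOXC10, HOXB8, HOXB13 and HOXB6) and 0 lower, and 2 of the 24 had passed the filter through H2052 alone. HOXB6 lost its call without either H2052 library, without single libraries of each other line and with the replicate number as a block.

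Interferon-stimulated genes were not part of the pattern, with 0 of 48 called in either direction. Of 9 tested immune checkpoint ligands, 4 (44.4%) were higher and 0 lower, beside 8.26% and 6.89% over all genes. Of the 9, 1 had passed the filter through H2052 alone, CD274, which could only be called higher. CD274, which encodes PD-L1, had 507 and 592 CP20M in H2052 against 2 to 82 (nearest difference 2.86, standard error 0.31, limma adjusted p = 2.13e-05), whereas the calls of PDCD1LG2 (0.65) and VSIR (1.02) depended on single libraries and on upper-quartile scaling. Among 23 tested cytokines and chemokines, 4 were higher and 0 lower, but 4 of the 23 had passed the filter through H2052 alone, so this count supports no direction for the list. IL33 and IL6 had the largest and the third largest nearest difference of the 4. Of 20 tested antigen presentation genes, 2 (10%) were higher and 2 (10%) lower, with a median difference of -0.33. The class II antigen genes HLA-DPA1 and HLA-DPB1 were higher at low levels. They had 109 and 87 CP20M and 209 and 187 CP20M against at most 14 in any other library. Both passed the filter through H2052 alone and could only be called higher. The lower genes were TAPBP and PSMB10, and both calls were lost with median-of-ratios scaling and without H2052 replicate 1.

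Few of the cell cycle genes were called. Of 28 tested proliferation genes, 0 were called in either direction, beside 8.26% higher and 6.89% lower over all genes, and the median difference was 0.11. The H2052 replicates differed at genes of DNA replication and mitosis such as CLSPN (901 and 296 CP20M) and CDCA8 (1519 and 811). The lack of calls therefore does not show equal levels. Of 23 tested regulators of G1, 0 were higher and 1 was lower, E2F3, with 428 and 264 CP20M and a nearest difference of -0.89, a call lost without H2052 replicate 2. CCND1, which encodes cyclin D1, had 31753 and 20388 CP20M in H2052 and was the highest on average, but H28 reached 22292 and the difference of 0.70 was not called (standard error 0.32, limma adjusted p = 0.0764). CDK4, CDK6, CCND2, CCND3, CCNE1 and RB1 were not called either. Of 19 tested tumour suppressors of mesothelioma, 3 (15.8%) were lower (NF2, LATS2 and PTCH1), beside 6.89% over all genes. ULK2 was the 1 higher member (5.26%, beside 8.26%), with a call lost without either H2052 library, while BAP1 was not called.

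Genes that set H2052 apart were unevenly spread over the chromosomes. On chromosome 7, 247 of 778 tested genes (31.7%) were lower and 16 were higher, and the median difference from the mean of the other lines was -0.80. On chromosome 6, 180 of 807 (22.3%) were lower, with a median of -0.64. These chromosomes held 22% and 16% of all lower calls but 4.78% and 4.95% of the genes tested. Higher calls were most frequent on chromosome 20 (99 of 430, or 23%), chromosome 8 (18.9%), chromosome 11 (17.8%) and chromosome X (15.9%), beside 8.26% over all genes. On chromosomes 11 and 20, 5 and 4 genes were lower.

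**Figure D3:**
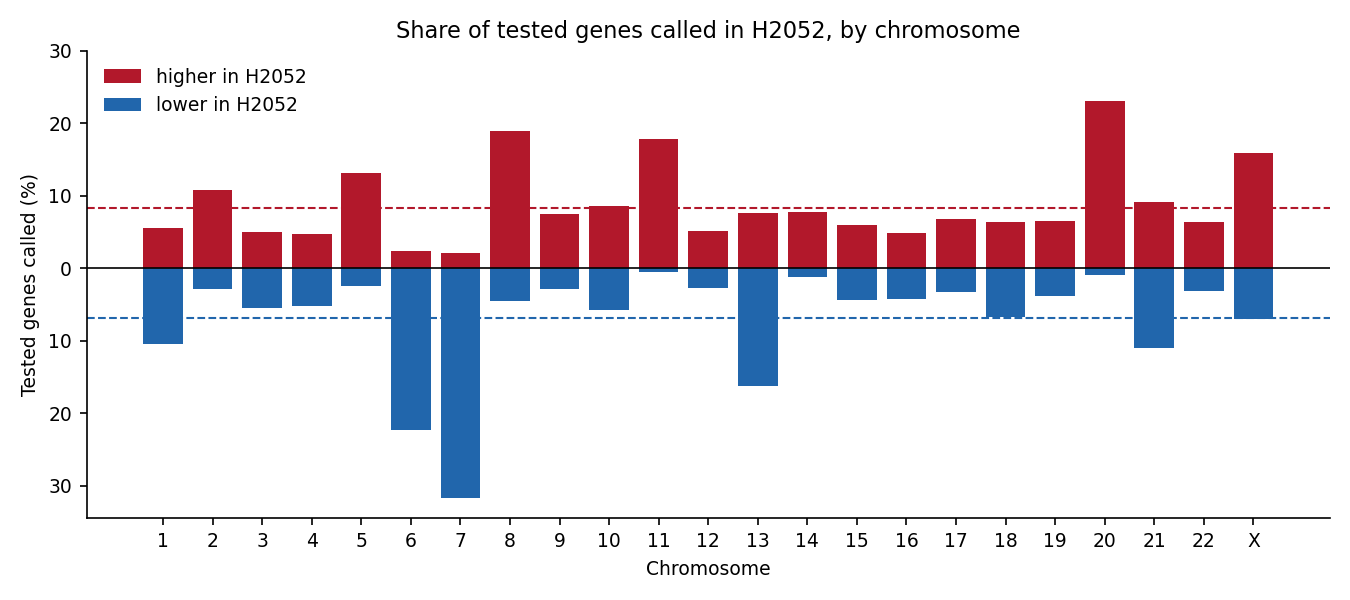
Percentage of the tested genes of each chromosome that were called higher (upward bars) or lower (downward bars) in H2052 than in each other sensitive line. Dashed lines give the shares over all genes tested (8.26% and 6.89%), and the bars of chromosomes 6 and 7 reach farthest down.

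Within chromosomes, the calls lay in runs. Of 281 windows of 10 Mb with at least 15 tested genes, 18 had over 30% of their genes lower, in 10 runs, and 10 had over 30% higher, in 6 runs. The densest was on chromosome 1 from 170 to 190 Mb, where 42 of 65 genes (64.6%) were lower with a median difference of -1.57. It was similar against each line, at -1.54 for H2452, -1.65 for H28 and -1.56 for MSTO-211H. The genes in front there, named after their values were seen, were LHX4 (-2.52), ZBTB37 (-2.35), TPR (-2.30), TOR3A (-2.24) and PRDX6 (-2.19), whose products include a nuclear pore protein and an antioxidant enzyme with no shared role. TNFSF4, in the same stretch, went the other way (2.37). On chromosome 6 the runs were from 70 to 100 Mb (40.7% lower) and from 110 to 130 Mb (35.9%), and chromosome 7 had 5 runs with 31.5% to 41.2% of the genes lower.

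Runs of higher genes lay on chromosome X from 0 to 30 Mb, where 45 of 90 genes were higher and 1 was lower (median 1.24), on chromosome 8 from 100 to 130 Mb, where 53 of 102 were higher and 0 lower (median 1.09), and on chromosome 5 from 10 to 20 and from 30 to 40 Mb, with 40% and 47.5% higher. GDNF, a ligand that signals through RET, lies in the latter run and was named with its values known, with 948 and 665 CP20M against 0 to 148 (nearest difference 3.38). FAM83A, HAS2, CSMD3 and ANGPT1 lie in the run on chromosome 8, but their differences, from 3.09 to 7.78, were far above its median. All 16 runs had a median of the same sign in the palbociclib libraries and under both other scalings. Rescaling shifts all genes nearly alike, so the sign could hardly change. The share of calls did fall to 30% or below in some runs. With median-of-ratios scaling it was 24% on chromosome 1 from 100 to 110 Mb and 25% on chromosome 7 from 60 to 80 Mb. It was 29.4% on chromosome 21 and 29.7% on chromosome 6 from 110 to 130 Mb. Upper-quartile scaling gave 25.3% on chromosome 11 and 30% on chromosome 2.

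**Figure D4:**
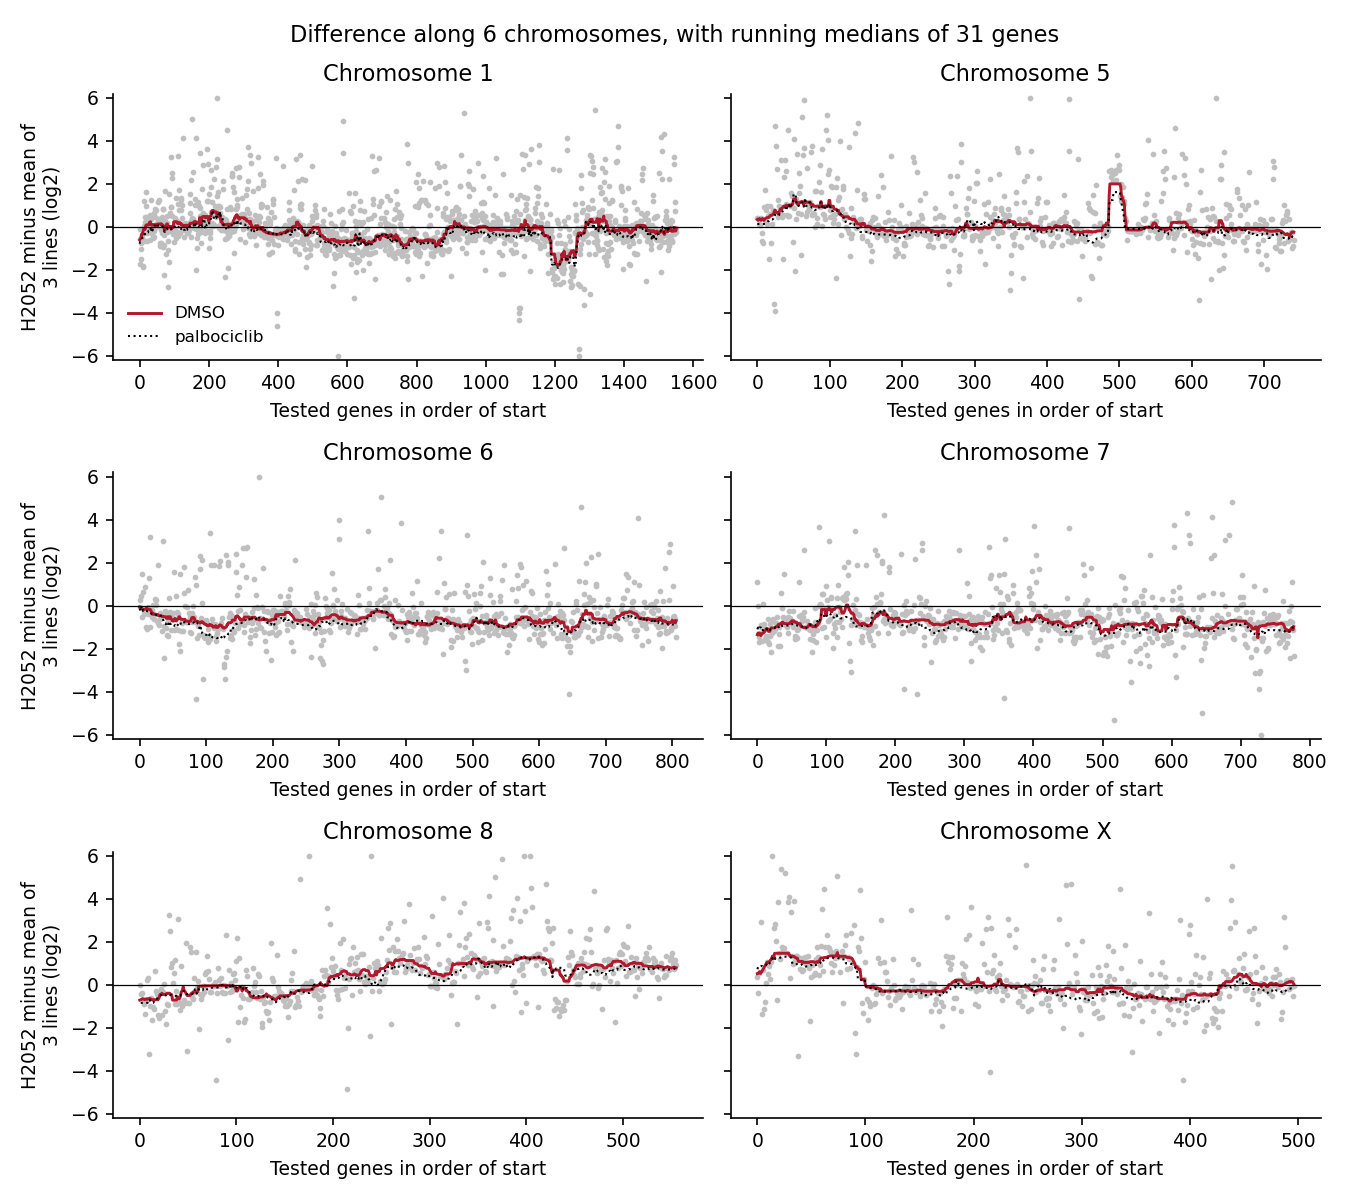
Difference between H2052 and the mean of the 3 other lines (log2 scale, grey points, values beyond 6 drawn at 6) for tested genes in their order on 6 chromosomes, with running medians of 31 genes in DMSO (red) and palbociclib (dotted). The medians lie below 0 along most of chromosomes 6 and 7, dip on a stretch of chromosome 1 and rise above 0 at the start of chromosomes 5 and X and on the later part of chromosome 8. The narrow peak on chromosome 5 is the protocadherin alpha cluster.

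The pattern was looked up in the palbociclib libraries of the same experiments, which were other cultures of the same lines kept with 1 µM of the drug. There, 1122 of 16052 tested genes (6.99%) were higher in H2052 than in each other line and 1521 (9.48%) were lower, while median-of-ratios scaling gave 1593 and 881, a share of higher calls of 64.4% in place of 42.5%. Of the 1346 genes higher in DMSO, 1229 were tested with palbociclib and 811 (66%) were again called higher. Of the 1122 lower genes, 1100 were tested and 848 (77.1%) were again called lower. No gene was called in the opposite direction. LATS2 stayed at 0 in both palbociclib libraries and in the washout library of H2052, NF2 had 264 and 311 CP20M and FAM83A had 9734 and 10737.

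Whether the difference itself changed with the drug was tested with an interaction term over the 22 libraries. Over all genes, 48 of 16759 (0.286%) had a more positive response to palbociclib in H2052 than in each other line and 143 (0.853%) a more negative one (adjusted p under 0.05 in all 3 contrasts, with no bound on the fold). Among the genes higher in DMSO, 39 had the more negative and 3 the more positive response, and among the lower genes these were 6 and 4. These genes were called on the same H2052 DMSO libraries that enter the interaction, which favours the negative direction for the higher genes, so nothing is read from this split. HAS2 had 1177 and 921 CP20M in DMSO, 220 and 349 with palbociclib and stood at 637 in the washout library. CDH2 had 1842 and 1521 CP20M in DMSO and 2857 and 2981 with palbociclib, where it was no longer called lower. Without the experiment block the interaction gave 47 genes instead of 191, so most of these calls depend on the block, which pairs the DMSO and palbociclib cultures of an experiment.

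**Figure D5:**
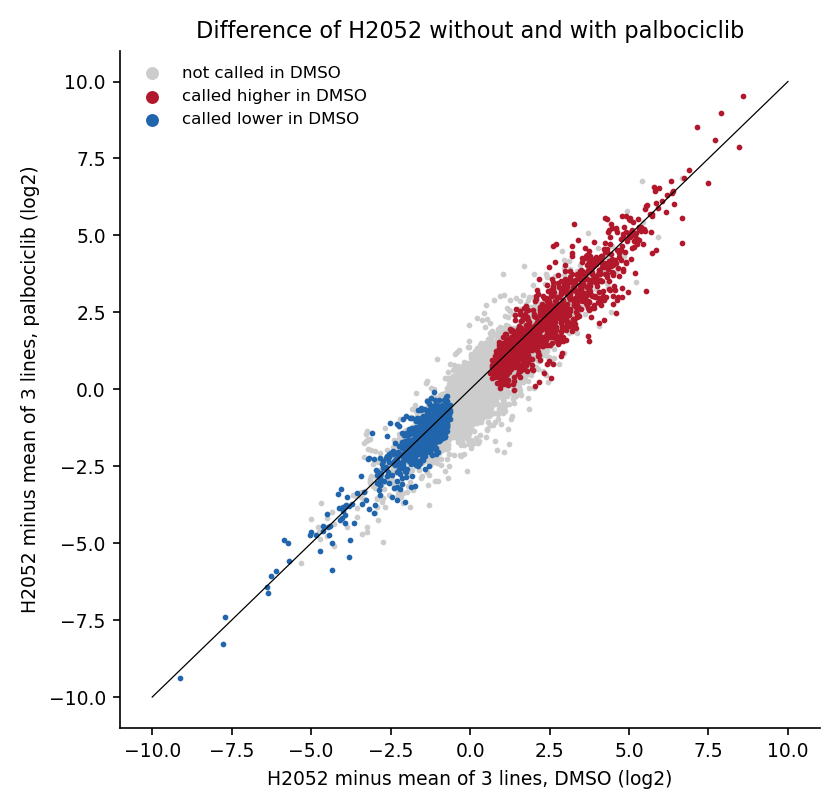
Difference between H2052 and the mean of the 3 other lines in DMSO (horizontal) and in palbociclib (vertical), on the log2(CP20M + 10) scale, for genes tested in both. Genes called higher or lower in DMSO are coloured, the line marks equal differences, and no coloured gene was called in the opposite direction with palbociclib.

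Lines outside these tests are given for the leading genes as values alone. MPP89 is an MPM line that the study classes as resistant. Its DMSO libraries had low NF2 as well, with 819 and 699 CP20M, and LATS2 was present there with 1639 and 1459. COL6A3 and TENM2 were also high in MPP89 (2229 and 2655, and 6222 and 5615 CP20M), whereas FAM83A had 37 and 77. MeT-5A, the mesothelial line immortalized by SV40, had 14 CP20M of FAM83A and 11 of IL33 in its DMSO library.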

How the data were processed

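The authors prepared directional libraries, trimmed reads with Trimmomatic 0.36, mapped them to GRCh38 with STAR 2.5.3, counted reads per gene with HTSeq 0.9.1 and scaled each library to counts per 20000000 (CP20M). The deposited values are this scaled score with each fraction raised to the next integer, so no count model was used. A fit tested every gene that reached 100 CP20M in any of its libraries.

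Values were fitted as log2(CP20M + 10) with limma 3.58.1 (trend) in R 4.3.3, with 1 coefficient per line over 11 libraries and contrasts of H2052 with each other line. The interaction with palbociclib had the experiment as a block. Adjusted p-values are Benjamini-Hochberg values over all genes tested, two-sided, and the p given for a gene is the largest of its 3 contrasts. The nearest difference is that with the line closest to H2052. On simulated data the fit recovered 84.5% of genes changed 2-fold and 100% of those changed 4-fold, with 1 and 0 false calls. The simulated lines differed only at genes changed in H2052, whereas 47.2% to 56% of the real genes differed between H2052 and another line. These rates therefore need not hold for the data.

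Named genes were the 15 protein-coding genes called in each direction with the largest nearest difference, up to 5 called genes per direction of each of 39 gene lists, a fixed set of suppressor, cell cycle and mesothelial genes, and genes at or below 5 CP20M in H2052 and at 100 or more elsewhere. The members and the lists were chosen with earlier results of these data known. Genes of the Y chromosome are not named. Outside this rule, LATS1, VIM, CDH1, PTPRC, PECAM1, CLSPN, CDCA8, the CTGF group, GDNF, the protocadherins and the genes in front of chromosome runs were chosen after their values were seen. Gene positions were read from GENCODE 44 on GRCh38, whereas the authors counted on Ensembl 90. Depth was estimated from the integers that the scaling skips at the low end of a library. Replicates of a line had identical values at no more than 2.78% of genes, so none was merged. Figures were drawn with matplotlib 3.10.9 in Python 3.11.15.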

Additional observations from a re-analysis of the deposited data

Results flagged for a closer look

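For 7 named genes, the effect of palbociclib in H2052 differed from that in each other sensitive line (limma interaction over 22 libraries, experiment as a block). The values below are the smallest of the 3 differences in effect on the log2(CP20M + 10) scale. HAS2 (-1.80, adjusted p = 0.00529), NTRK3 (-2.06, adjusted p = 0.0152), COL9A2 (-1.92, adjusted p = 0.0194) and ESRP1 (-1.31, adjusted p = 0.0241) were higher in H2052 without the drug and had a more negative response to it than in the other lines. BCAN (-0.97, adjusted p = 0.0365) and CLU (-1.15, adjusted p = 0.038) were lower without the drug and had the more negative response. BCAN had 34 and 62 CP20M in the H2052 DMSO libraries and 5 and 8 with palbociclib, and CLU had 407 and 610 and then 306 and 317. CDH2 (0.70, adjusted p = 0.0203) was lower without the drug and gained with it. In all 4 of these higher genes the other lines had at most 31 CP20M in DMSO and so had little room to fall. A fall in H2052 would then come out as the more negative response. The 4 genes and CDH2 also went the way that naming them on the same H2052 DMSO libraries favours. Nothing is therefore read from their direction. Groups of 2 and 3 libraries are too small for a check of single outlying libraries.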

How the results depend on the processing

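Of 148 named called genes, 103 kept their call under all 21 alternatives and none changed direction. Of the 45 others, 24 fell below the bound with a fold over 2, and for 9 of the 45 this was the sole alternative that ended the call. With a fold over 2, 845 genes were higher and 432 lower in DMSO, and 699 and 649 with palbociclib. Without a filter on low values, 2045 genes were higher in DMSO. Median-of-ratios scaling left 881 genes lower with palbociclib. Same-numbered libraries of different lines correlated with r from -0.05 to 0.36 in their deviations from the line means (median 0.17 over 15 pairs, against -0.08 over 30 pairs with different numbers). The 6 same-numbered pairs with H2052 were all above 0.1 and not all of the others were. The deviations of 2 libraries from their mean mirror each other, so these 6 values are not independent. H2052 replicate 1 also reached 0.272 with MSTO-211H replicate 3. Replicate 2 was kept for 10 days in H2052 and for 9 days in the other lines. Whether replicate numbers are paired between lines cannot be told from these values, and the labels do not give it. The replicate number as a block gave 1401 higher and 1164 lower genes in DMSO and 1165 and 1721 with palbociclib. The interaction called 47 genes with no replicate block (chosen after seeing the data) and 191 with it, and 46 of the 47 were among the 191. Leaving out 1 library at a time, the counts were 1068 to 1348 higher and 910 to 1157 lower in DMSO, and 848 to 1150 and 1101 to 1573 with palbociclib. With 1 H2052 library left, that library was assumed to vary like the other lines. The causes were not tested. Depth limits genes near the floor of 3 reads, and 2 libraries limit the precision of every H2052 mean.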

Other observations

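The clustered protocadherins on chromosome 5, cell surface proteins that give neurons their identity, were looked at after the running median of that chromosome had been seen. Of 15 tested genes of the alpha cluster, 15 were called higher in H2052 in DMSO and 11 with palbociclib. Summed over its 16 genes, H2052 had 2347 and 1945 CP20M and the other libraries 53 to 480. These genes share their last exons, and the 15 calls are therefore not separate results. A gene that passed the filter of 100 CP20M through H2052 alone has no way to be called lower. How many of the 15 did so was not counted, and their share of higher calls is not read against the 8.26% over all genes. The neighbouring beta and gamma clusters, with 8 and 22 tested genes, had 0 called.

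A minority of muscle and neuronal genes were called higher, beside 8.26% higher and 6.89% lower over all genes. Of 14 tested muscle genes 3 were higher and 0 lower, and 1 of the 14 had passed the filter through H2052 alone. MYL9 was at 3673 and 4097 CP20M (nearest difference 2.11), CNN1 at 110 and 82 (2.28) and TNNT1 at 1009 and 1277 (2.44). Of 16 tested neuronal genes 4 were higher and 0 lower, and 3 of the 16 had passed the filter through H2052 alone. Of 22 tested imprinted genes, 3 (13.6%) were higher and 1 (4.55%) was lower, and 1 of the 22 had passed the filter through H2052 alone. PLAGL1 was the lower gene (nearest difference -1.32), and the higher ones included RTL1 and MEG8 of the cluster on chromosome 14, with 441 and 247 CP20M and 1607 and 988 CP20M. Of 9 tested Hedgehog genes, 2 were lower, the receptor PTCH1 (-0.76) and its target GLI1, which had 2 and 3 CP20M against 10 to 149 and lost its call without either H2052 library.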
